A study of Rattus norvegicus with 10 samples.

Results

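The antigen presentation genes described here are a set of 10 rat genes: Cd1d1, B2m, Tap1, Tap2, Tapbp, Psmb8, Psmb9, Psmb10, Erap1 and Nlrc5. They were picked by symbol, with Cd1d1 selected because of its measured change in these libraries and the others because they belong to the same machinery, and the estimated counts and TPM values of all transcripts of a gene were added up. All 10 were found among the 23918 genes with values, and all 10 were among the 12941 genes that passed the filter on low values. The study silenced the transcriptional repressor Scrt1 in β-cells that had been sorted by their autofluorescence from dispersed islets of adult rats of the outbred Sprague-Dawley stock. The cells were transfected with a pool of siRNAs against Scrt1 (siScrt1, 5 libraries, replicates A to E) or with a negative control siRNA (siCtrl, 5 libraries, replicates 1 to 5), so that both groups had undergone sorting and lipid transfection, and RNA was taken after 48 h. The siRNA delivery leaves part of the Scrt1 transcript in place, and the labels do not say which animals or cultures gave which library, so that the p-values measure the spread between these libraries, which may be partly technical.

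Nucleated cells display peptides from their own proteins on class I molecules, each made of a polymorphic heavy chain and the invariant β2-microglobulin. The proteasome cuts proteins into peptides, with Psmb8, Psmb9 and Psmb10 replacing the constitutive catalytic subunits Psmb5, Psmb6 and Psmb7 in the immunoproteasome. Tap1 and Tap2 together pump the peptides into the endoplasmic reticulum, Erap1 trims them there, and Tapbp (tapasin) holds the class I molecule at the pump until it is loaded. Nlrc5 is a transactivator of class I genes, and interferons are the classical inducers of the pathway. Cd1d1 encodes CD1d, a class I-like molecule that also binds β2-microglobulin but presents lipids, to natural killer T cells, after loading in endosomes and lysosomes. In the islet this machinery is best known from type 1 diabetes, where β-cells with raised class I molecules are recognised by cytotoxic T cells.

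The libraries held 11901342 to 17444034 recovered reads, a recovered read being the scaled count of a gene divided by what 1 read is worth in that library. Scrt1 itself had 215, 156, 213, 250 and 166 scaled counts in siCtrl replicates 1 to 5 and 83.3, 62.3, 63.1, 30.5 and 22.8 in siScrt1 replicates A to E, a log2 difference of -2.06 (SE 0.308, limma adjusted p = 0.0062), and the groups did not overlap. Over all genes, 1.05% were called at an adjusted p under 0.05, of which 0.371% of all genes were raised and 0.68% were lowered in siScrt1. With same-numbered libraries fitted as pairs, 259 genes were called in place of 136. The groups did not overlap in either direction for 3.51% of all genes. The β-cell marker genes summed to 333000 to 615400 TPM per library, while the immune marker genes summed to 1.70 to 4.11 TPM, with the T-cell gene Cd3e and the B-cell gene Ms4a1 at 0 in all 10 libraries. The α-cell marker genes summed to 530 to 927 TPM and the duct marker genes to 109 to 160 TPM. Those of δ- and PP-cells summed to 40.1 to 193.8 TPM. The acinar, endothelial and mesenchymal sums did not exceed 3.617, 1.923 and 5.257 TPM.

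Promoter windows of 300 bases, from 250 bases before to 50 bases after the annotated start, were found for 8 of the 10 genes in a RefSeq table of the rat build GRCr8. Erap1 and Nlrc5 were not matched. The windows of Cd1d1, the gene with the largest difference, of its partner B2m, of Tapbp, whose difference was the next largest relative to its error, and of Psmb8, which varied between libraries together with B2m, are shown 5′ to 3′ on the strand of the gene. They lie at chr2:174724980-174725279 on the minus strand (Cd1d1), chr3:129549080-129549379 on the plus strand (B2m), chr20:4967828-4968127 on the minus strand (Tapbp) and chr20:4656982-4657281 on the minus strand (Psmb8). Capitals mark, on either strand, the E-box CAGGTG bound by Scratch and Snail repressors, the interferon-stimulated response element GAAANNGAA and the CCAAT box.
Cd1d1: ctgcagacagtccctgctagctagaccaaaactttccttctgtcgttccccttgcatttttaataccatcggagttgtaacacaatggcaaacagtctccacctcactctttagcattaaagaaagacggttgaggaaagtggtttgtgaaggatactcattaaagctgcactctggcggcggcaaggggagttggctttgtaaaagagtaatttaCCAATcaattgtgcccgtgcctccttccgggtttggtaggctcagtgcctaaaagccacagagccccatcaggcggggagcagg
B2m: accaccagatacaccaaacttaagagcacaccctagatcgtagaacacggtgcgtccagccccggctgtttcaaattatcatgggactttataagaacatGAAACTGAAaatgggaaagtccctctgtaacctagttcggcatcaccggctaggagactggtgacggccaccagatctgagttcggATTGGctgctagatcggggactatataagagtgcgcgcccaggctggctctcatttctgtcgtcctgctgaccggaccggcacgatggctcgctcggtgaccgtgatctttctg
Tapbp: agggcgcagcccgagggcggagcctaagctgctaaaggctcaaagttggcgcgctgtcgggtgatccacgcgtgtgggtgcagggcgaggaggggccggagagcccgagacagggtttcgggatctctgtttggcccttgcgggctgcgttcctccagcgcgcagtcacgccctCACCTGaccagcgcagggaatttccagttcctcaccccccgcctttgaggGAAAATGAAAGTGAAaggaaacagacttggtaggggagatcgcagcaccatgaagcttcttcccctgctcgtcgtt
Psmb8: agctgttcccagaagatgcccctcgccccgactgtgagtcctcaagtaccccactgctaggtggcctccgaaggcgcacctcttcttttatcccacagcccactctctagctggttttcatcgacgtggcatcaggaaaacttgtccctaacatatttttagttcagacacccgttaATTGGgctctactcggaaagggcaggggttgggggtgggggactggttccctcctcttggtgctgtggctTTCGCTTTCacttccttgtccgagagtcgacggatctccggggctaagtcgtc
In the Cd1d1 window the CCAAT box, 34 bases before the start, was the 1 match to any of the searched motifs. The window of B2m holds an interferon-stimulated response element 150 bases before the start and an inverted CCAAT box 64 bases before it, that of Tapbp holds a pair of overlapping interferon-stimulated response elements and an inverted E-box, and that of Psmb8 holds an inverted element that spans the start and an inverted CCAAT box.

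Among the 8 windows, 6 (B2m, Tap1, Tap2, Tapbp, Psmb8 and Psmb10) held GAAANNGAA, against 9.71% of the 33469 promoter windows in the table. The CCAAT box was found in 4 members (Cd1d1, B2m, Psmb8 and Psmb9) and in 37.5% of all windows. The E-box CAGGTG was found in 3 members (Tapbp, Psmb9 and Psmb10) and in 18.8% of all windows. Its longer form CAACAGGTG, present in 0.203% of all windows, and the cyclic AMP response element core TGACGT, present in 7.94%, were found in none of the 8. Absence of these letters from a window of this length says nothing about binding elsewhere. Tap1 and Psmb9 are transcribed in opposite directions from neighbouring starts on chromosome 20, and their windows share 44 bases. In the RefSeq gene order of this build Tap2, Psmb8, Tap1 and Psmb9 follow each other without another gene between them.

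Per length, the levels of the 10 genes differed widely. B2m, the light chain shared by class I molecules and CD1d, stood at a mean of 501 TPM over the 10 libraries, above 99.5% of all tested genes. It was followed by Tapbp at 25.6 TPM, Erap1 at 19.7 TPM and Cd1d1 at 9.61 TPM. The immunoproteasome subunits came next, with Psmb10 at 8.65 TPM, Psmb8 at 4.85 TPM and Psmb9 at 4.31 TPM. Tap1 stood at 3.89 TPM, the transactivator Nlrc5 at 1.54 TPM and Tap2 at 0.714 TPM, above 7.67% of the tested genes. Between neighbours in this order, the ranges over the 10 libraries were apart only for B2m and Tapbp, Erap1 and Cd1d1, Tap1 and Nlrc5, and Nlrc5 and Tap2. Tapbp and Erap1, and all neighbours from Cd1d1 down to Tap1, overlapped in their ranges. The place of Cd1d1 differed by group, since its mean lay below that of Psmb10 in siCtrl (6.74 against 8.17 TPM) and above it in siScrt1 (12.5 against 9.14 TPM). In bulk RNA of this kind, fewer cells that express a gene and less RNA per cell cannot be told apart.

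Cd1d1 (ENSRNOG00000016451) was the member with a clear separation of the groups. It had 181.9, 178.7, 182.3, 161.0 and 185.2 scaled counts in siCtrl replicates 1 to 5 and 321.8, 314.7, 297.5, 361.1 and 346.1 in siScrt1 replicates A to E. Every siScrt1 library lay above every siCtrl library. The lowest value of all was that of siCtrl replicate 4. The means were 177.8 ± 9.66 in siCtrl and 328.2 ± 25.3 in siScrt1 (SD over the 5 libraries of a group), which is 84.6% higher in siScrt1. The log2 difference was 0.88 (SE 0.0812). Per length, the mean was 6.74 TPM in siCtrl and 12.5 TPM in siScrt1. These values rest on 165 to 402 recovered reads per library and on 1 annotated transcript. Since Cd1d1 was selected by this contrast, these are a description and no p is given. Among the 48 raised genes its difference ranked 17 by size.

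**Figure D1:**
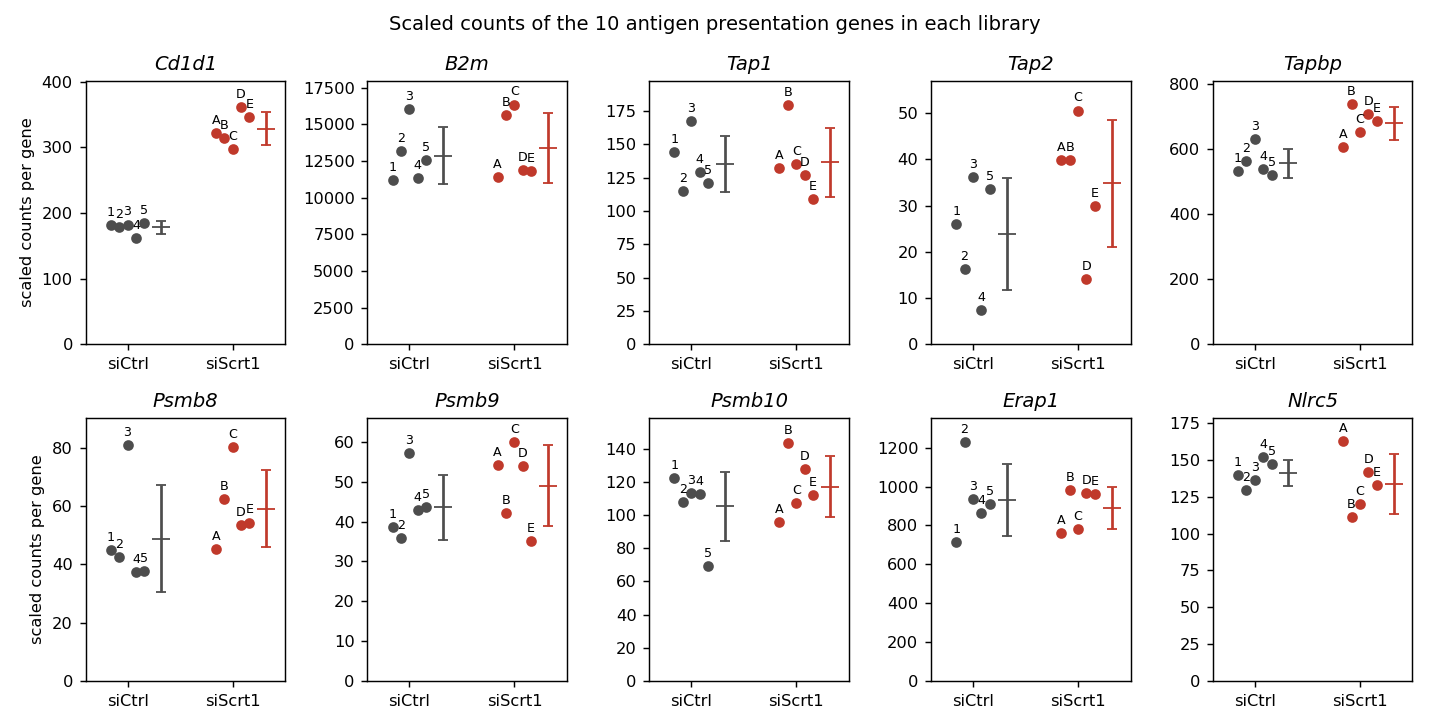
Scaled counts (vertical axes, from 0) of the 10 genes in each siCtrl library (grey, replicates 1 to 5) and each siScrt1 library (red, replicates A to E), with the mean and SD of each group beside the points. The groups separate for Cd1d1, from 161.0 to 185.2 against 297.5 to 361.1, and overlap for the other 9 genes.

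B2m (ENSRNOG00000017123), the partner that CD1d needs at the cell surface, showed no such separation. Its scaled counts were 11230, 13180, 16050, 11320 and 12580 in siCtrl replicates 1 to 5 and 11380, 15640, 16360, 11860 and 11840 in siScrt1 replicates A to E. The groups covered nearly the same range, and the log2 difference was 0.05 (SE 0.129). In TPM, Cd1d1 amounted to 1.13% to 1.61% of B2m in the siCtrl libraries and to 1.81% to 3.03% in the siScrt1 libraries, so that B2m outnumbered Cd1d1 transcripts many times over in every library.

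Of the peptide loading genes, Tapbp (ENSRNOG00000029500) had the difference best resolved from its error. Its scaled counts were 533.6, 563.9, 631.7, 538.1 and 519.4 in siCtrl replicates 1 to 5 and 608.4, 738.9, 653.8, 708.7 and 688.4 in siScrt1 replicates A to E. The mean was 21.9% higher in siScrt1, with a log2 difference of 0.29 (SE 0.075). The groups overlapped through siCtrl replicate 3, which lay above siScrt1 replicate A.

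Tap1 (ENSRNOG00000000457), a subunit of the peptide pump, had 144.6, 115.1, 167.6, 129.1 and 121.2 scaled counts in siCtrl and 132.4, 179.4, 135.0, 126.8 and 109.0 in siScrt1. The highest and the lowest value were both in siScrt1, and the log2 difference was 0.00 (SE 0.144). Tap2 (ENSRNOG00000046031), the other subunit, had 26.0, 16.2, 36.3, 7.33 and 33.5 scaled counts in siCtrl and 39.8, 39.8, 50.6, 14.1 and 29.9 in siScrt1. Its log2 difference of 0.62 carried an SE of 0.438. The recovered reads of Tap2 were whole multiples of 7.87, namely 1 to 6 such steps in each library and 15 steps in siCtrl against 22 in siScrt1 in all, so that its precision is that of a much smaller count than its reads would give. The cause of these steps was not tested.

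Among the immunoproteasome subunits, Psmb8 (ENSRNOG00000000456) had 45.0, 42.6, 81.1, 37.4 and 37.6 scaled counts in siCtrl and 45.3, 62.4, 80.2, 53.4 and 54.3 in siScrt1. Replicates 3 and C were high in their groups, the groups overlapped, and the log2 difference was 0.31 (SE 0.227). Psmb9 (ENSRNOG00000000459) had 38.6, 36.0, 57.1, 42.8 and 43.6 scaled counts in siCtrl and 54.3, 42.1, 59.9, 53.9 and 35.1 in siScrt1, a log2 difference of 0.16 (SE 0.189). The lowest value of all lay in siScrt1 replicate E. Psmb10 (ENSRNOG00000019494) had 122.4, 107.9, 113.3, 112.6 and 69.2 scaled counts in siCtrl and 95.9, 143.1, 107.0, 127.5 and 111.9 in siScrt1. Its log2 difference was 0.17 (SE 0.164), and siCtrl replicate 5 lay far below the rest. Without that library the difference was 0.025.

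Psmb5 and Psmb7 were more abundant per length than their immunoproteasome counterparts in every library. Psmb8 made up 5.21% to 7.63% of the summed TPM of Psmb8 and Psmb5 in siCtrl and 6.69% to 11.8% in siScrt1. The 11.8% was that of siScrt1 replicate C, and the other siScrt1 libraries had at most 7.74%. In siScrt1 replicate C, Psmb8 had 8.47 TPM on 80.2 scaled counts, against 5.63 TPM on 81.1 in siCtrl replicate 3. Its higher TPM there thus came without more scaled counts, and the cause was not tested. Psmb10 made up 8.05% to 14.1% of the sum of Psmb10 and Psmb7 in siCtrl and 11.4% to 14.2% in siScrt1. Both shares overlapped between groups. Psmb5, with a log2 difference of 0.00 (SE 0.116, limma adjusted p = 0.996), and Psmb7, also with 0.00 (SE 0.0742, limma adjusted p = 0.994), did not pass the test. Psmb6, the counterpart of Psmb9, was listed at or near 0 in 6 libraries and at 25.3 to 65.2 scaled counts in the other 4, which cuts across the groups. Its TPM exceeded that of Psmb9 in 2 of the 10 libraries, and no ratio to Psmb9 was formed. Psmb5 and Psmb7 stood at means of 62.6 and 62.4 TPM over the 10 libraries. The cause of the uneven Psmb6 values was not tested, so they are not read as its level in the cells.

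Erap1 (ENSRNOG00000009997), the peptide-trimming aminopeptidase, had 715.8, 1228, 937.4, 865.7 and 908.9 scaled counts in siCtrl and 761.1, 981.2, 780.4, 964.2 and 959.0 in siScrt1. The siScrt1 values lay within the siCtrl range, and the log2 difference was -0.05 (SE 0.127). The transactivator Nlrc5 (ENSRNOG00000048222) had 140.0, 129.4, 136.3, 151.7 and 146.9 scaled counts in siCtrl and 162.8, 111.1, 119.9, 141.9 and 132.7 in siScrt1. Here the siCtrl values lay within the siScrt1 range, and the log2 difference was -0.09 (SE 0.114).

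Of the 10 members, 8 had a higher mean in siScrt1, against 51.0% of all tested genes, with a median log2 difference of 0.164 for the members, 0.16 for the 9 without Cd1d1, and 0.0035 for all tested genes. Of the 9 other members, 8 differed by less than 2 SE, the exception being Tapbp. With same-numbered libraries fitted as pairs this held for 6 of the 9, since Tap2 (SE 0.236) and Psmb8 (SE 0.154) then also exceeded 2 SE. Tapbp was higher in siScrt1 in 5 of 5 same-numbered pairs, Tap2 and Psmb8 in 4 of 5. The number of members called was 1 of 10 (Cd1d1), where 1.05% of all genes were called, and the number without overlap between groups was 1 of 10, where 3.51% of all genes had none. Since the members were selected with this contrast known, these shares are a description.

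**Figure D2:**
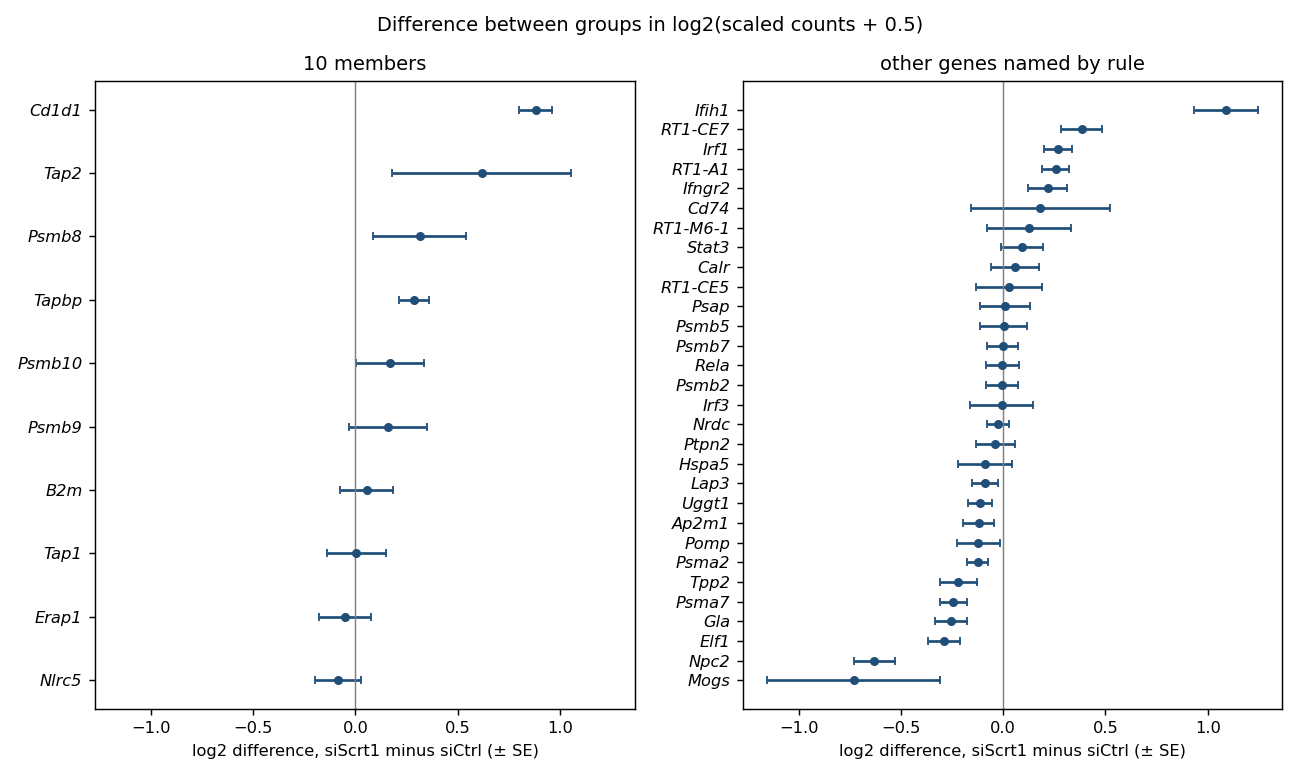
Difference between siScrt1 and siCtrl in log2(scaled counts + 0.5), horizontal axes, for the 10 members (left) and for the genes of the wider pathway named by rule (right), with bars of 1 SE. Cd1d1 stands at 0.88 on the left, Ifih1 at 1.09 and Npc2 at -0.63 on the right, and the wide bars of Tap2 and Mogs show how little their differences are resolved.

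Part of the spread followed the number that the deposited table gives to a library, with siCtrl replicate 1 and siScrt1 replicate A both numbered 1 and so on. B2m, Tap2, Psmb8 and Psmb9 were each highest in siCtrl replicate 3 among the siCtrl libraries and in siScrt1 replicate C among the siScrt1 libraries in scaled counts, although Tap2 stood marginally higher in siCtrl replicate 5 as CPM. Over all tested genes, 7.16% had number 3 highest in both groups. Erap1 was highest in number 2 of both groups, which makes 5 of 10 members with a shared highest number, where 30.1% of all tested genes had one. Deviations of log2(CPM + 0.5) from the group mean were compared between members over the 10 libraries. All members were measured in the same libraries, so differences between libraries in depth or preparation can enter all of them. The deviations ran together for B2m and Psmb8 (Pearson r = 0.78) and, more loosely, among B2m, Psmb8, Psmb9 and Tap1 (r from 0.26 to 0.78 over 6 pairs). Nlrc5 ran opposite to B2m (r = -0.73) and to Psmb8 (r = -0.70), and the median over all 45 pairs of members was 0.13. Cd1d1 had r from -0.41 to 0.6 with the other members. These are descriptions over few points.

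**Figure D3:**
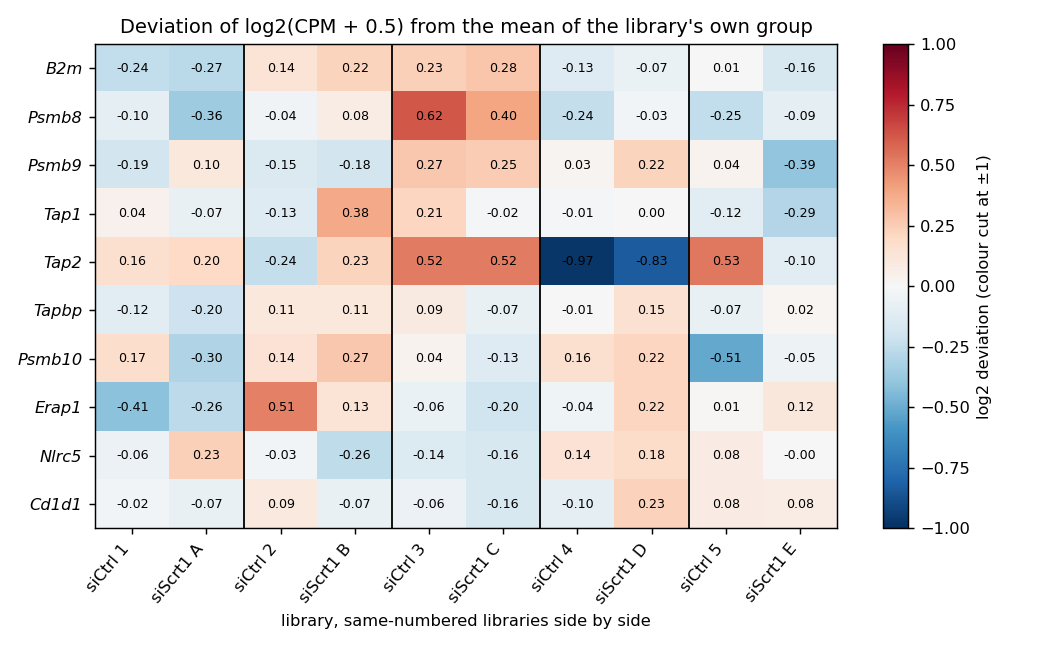
Deviation of log2(CPM + 0.5) of each member (rows) from the mean of its own group in each library (columns), with same-numbered siCtrl and siScrt1 libraries side by side, red above and blue below the group mean. Psmb8, Psmb9, B2m and Tap2 are red in both siCtrl 3 and siScrt1 C, and Tap2 is deep blue in both siCtrl 4 and siScrt1 D.

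The genes whose deviations were most like those of Cd1d1, out of 10125 compared over the 10 libraries, were Ap3m2 (r = 0.943), Yes1 (r = 0.942) and Tdrkh (r = 0.939). None of these 3 was called, with limma adjusted p-values of 0.934, 0.977 and 0.853. Most like B2m were AABR07027870.1 (r = 0.987), Col14a1 (r = 0.979) and Slc38a5 (r = 0.962), which were not called either, with limma adjusted p-values of 0.566, 0.934 and 0.806. Both sets were picked as the highest of 10125 correlations over only 10 libraries, so the size of r is no measure of shared regulation.

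Several members are annotated with more than 1 transcript. For Tapbp the main transcript carried 99.4% to 100% of the gene's scaled counts in each library, for Tap1 91.2% to 97.6% and for Erap1 86.1% to 90.4%. The division was less stable for Psmb8, where the main transcript carried 61.1% to 96.3%, and for Psmb9, where it carried 62.9% to 87.1%. Reads that matched several transcripts were shared out by the authors' quantification, so the sums per gene are firmer than the values per transcript.

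The wider pathway was described with 8 lists that hold 136 genes with values beside the members, of which 107 passed the filter. At an adjusted p under 0.05 over all genes, 2 of the 107 were called (1.87%, against 1.05% of all tested genes), 1 raised (Ifih1) and 1 lowered (Npc2). At an unadjusted p under 0.05 there were 14 of the 107, of which 6 were higher and 8 lower in siScrt1, against 1435 of the 12941 genes tested. The median log2 difference of the 107 was -0.006, with 51 higher and 56 lower. The lists were chosen with earlier results of these data known, so these shares and the p-values of listed genes are a description.

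The list nearest to Cd1d1, the loading and trafficking of lipid antigens for CD1d, had 14 tested genes, of which 7 were higher and 7 lower, with a median log2 difference of -0.012. Npc2 (ENSRNOG00000012062), a soluble cholesterol-binding protein of the lysosome, had 807, 973.8, 992.6, 1002 and 1048 scaled counts in siCtrl and 670.2, 742.2, 541.5, 536.2 and 639.1 in siScrt1. Every siScrt1 library lay below every siCtrl library. Npc2 fell from 964.7 ± 92.3 to 625.8 ± 87.8 scaled counts (SD over the 5 libraries of a group), a log2 difference of -0.63 (SE 0.101, limma adjusted p = 0.00914). Gla, the lysosomal α-galactosidase, also had groups without overlap, but its log2 difference of -0.25 (SE 0.0789, limma adjusted p = 0.205) did not pass. Psap, the precursor of the saposins that lift lipids out of membranes and the most abundant of the list at 278 TPM in siCtrl, had 0.01 (SE 0.123, limma adjusted p = 0.986), and the adaptor subunit Ap2m1 had -0.12 (SE 0.0744, limma adjusted p = 0.591).

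The class I heavy chain and class I-like list had 18 tested genes, of which none was called, with 2 at an unadjusted p under 0.05, 10 higher and 8 lower, and a median of 0.027. RT1-A1, a classical heavy chain, had 526.6, 576.4, 591.9, 552.4 and 572.4 scaled counts in siCtrl and 685.5, 719.7, 619.9, 725.0 and 621.9 in siScrt1. These groups did not overlap, and the log2 difference was 0.26 (SE 0.0682, limma adjusted p = 0.122). RT1-CE7 had 0.38 (SE 0.101, limma adjusted p = 0.117). The most abundant heavy chain genes, RT1-M6-1 with 0.13 (SE 0.207, limma adjusted p = 0.872) and RT1-CE5 with 0.03 (SE 0.161, limma adjusted p = 0.969), were far from passing. Heavy chain genes of the rat RT1 complex are near-identical copies that vary between animals, so reads may have been divided among them and the value of any one of them is uncertain. Summed over the 8 RT1-A and RT1-CE genes, the level was 141 ± 41.5 TPM in siCtrl and 148.7 ± 18.2 TPM in siScrt1 (SD over the 5 libraries of a group). The siCtrl mean and SD rest largely on replicate 3, whose sum was 213.6 TPM. The other siCtrl libraries had 110.0 to 132.0 TPM, and the siScrt1 libraries had 132.6 to 176.8 TPM. RT1-A2 alone gave 58.9 TPM in siCtrl replicate 3 and 42.2 TPM in siScrt1 replicate C, the highest siScrt1 library. B2m exceeded the sum of the 8 genes 2.85 to 4.56 times. The sum leaves out RT1-M6-1, which alone had a mean of 148 TPM over the 10 libraries, so the ratio holds for these 8 genes only.

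Some heavy chain genes followed the library number more than the group. They were picked after their values were seen. RT1-A2 had 566.2 scaled counts in siCtrl replicate 3 and 415.6 in siScrt1 replicate C, and 66.2 to 101.3 in the other 8 libraries. RT1-CE1 had 73.2 and 63.1 in siCtrl replicates 2 and 3 and 106.5 and 62.6 in siScrt1 replicates B and C, and 3.09 to 12.9 in the others. RT1-S3 was highest in number 4 of both groups, at 134.7 and 146.7 scaled counts. Number 3, in which RT1-A2 stood apart, is also the number in which B2m, Tap2, Psmb8 and Psmb9 were highest in both groups.

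**Figure D4:**
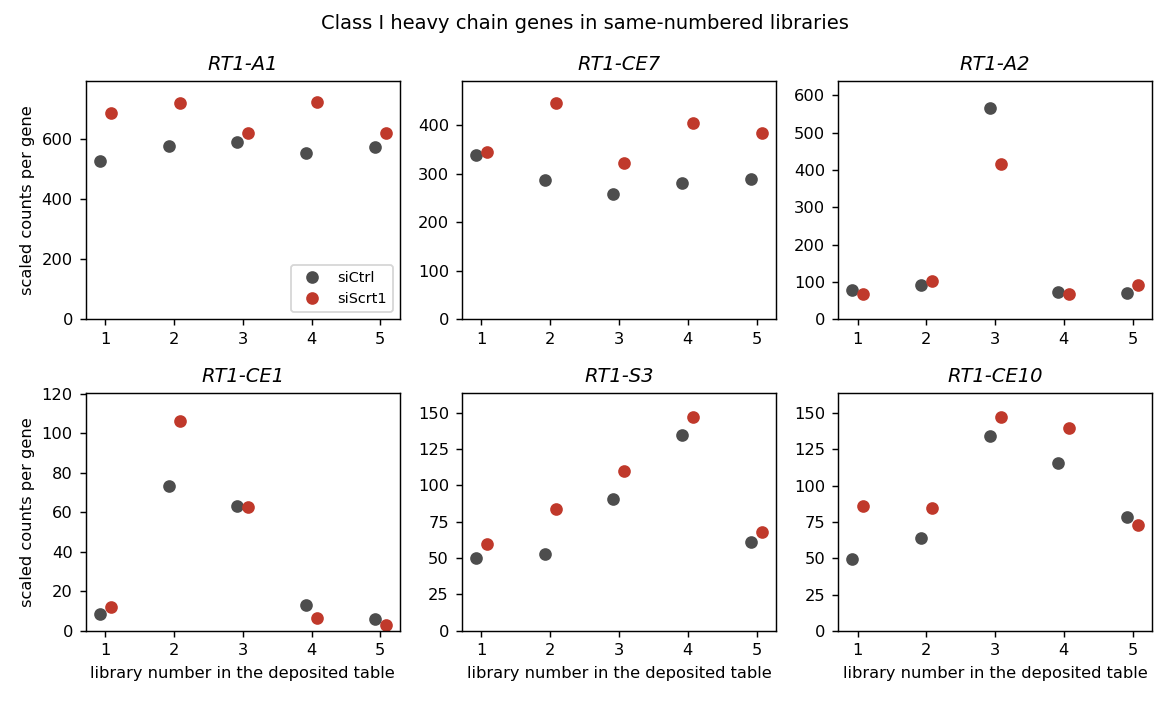
Scaled counts (vertical axes, from 0) of 6 class I heavy chain genes by library number (horizontal axes), siCtrl in grey and siScrt1 in red. RT1-A2 is high in number 3 of both groups (566.2 and 415.6), RT1-CE1 in numbers 2 and 3, and RT1-A1 is higher in siScrt1 at each number.

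Class II genes, which professional antigen-presenting cells use, were near the limit of detection. Of the 12 with values, 11 did not pass the filter, and none of these 11 exceeded 0.473 TPM in any library. The remaining gene, the invariant chain Cd74, had a mean log2 difference of 0.18 (SE 0.339, limma adjusted p = 0.889).

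None of the 12 tested genes of the peptide loading and quality control list was called, with 0 at an unadjusted p under 0.05, 4 higher and 8 lower, and a median of -0.029. The chaperones Hspa5, with -0.09 (SE 0.134, limma adjusted p = 0.853), and Calr, with 0.06 (SE 0.117, limma adjusted p = 0.899), were the most abundant. Uggt1, which marks misfolded glycoproteins for another round of folding, had -0.11 (SE 0.0594, limma adjusted p = 0.512). Mogs, the first glucosidase of N-glycan trimming, had -0.73 with an SE of 0.421 (limma adjusted p = 0.557).

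Of the 17 tested genes for the proteasome core and its activators, none was called in the limma test, although 5 had an unadjusted p under 0.05, 1 higher and 4 lower. Here 5 were higher and 12 lower in siScrt1, with a median of -0.04. The groups did not overlap for the core subunits Psma7, with -0.24 (SE 0.0665, limma adjusted p = 0.132), and Psma2, with -0.12 (SE 0.0511, limma adjusted p = 0.379). The assembly factor Pomp had -0.12 (SE 0.105, limma adjusted p = 0.713), and the core subunit Psmb2 had -0.01 (SE 0.0795, limma adjusted p = 0.988). The 8 tested peptidases that trim peptides included none that was called and 1 at an unadjusted p under 0.05, with a median of -0.002. That gene was Tpp2, a large cytosolic peptidase, with -0.22 (SE 0.0918, limma adjusted p = 0.381), while the aminopeptidase Lap3 had -0.09 (SE 0.0635, limma adjusted p = 0.641) and Nrdc had -0.03 (SE 0.0543, limma adjusted p = 0.899).

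The regulators of class I genes had 17 tested members, of which none was called and 2 had an unadjusted p under 0.05, with a median of 0.029. Their log2 differences ran from -0.289 to 1.763, and the gene at 1.763 was not among those 2. Irf1, an interferon-induced activator of class I and immunoproteasome genes, had 345.1, 346.2, 333.3, 306.3 and 309.7 scaled counts in siCtrl and 406.4, 403.9, 375.6, 386.2 and 403.0 in siScrt1. The groups did not overlap, yet the log2 difference of 0.27 missed the threshold (SE 0.0674, limma adjusted p = 0.0967). Elf1, an ETS family transcription factor, also had groups without overlap, with -0.29 (SE 0.0781, limma adjusted p = 0.125), and passed when siCtrl replicate 3 was left out (limma adjusted p = 0.0382). Irf3 and Rela, the most abundant of the list, had log2 differences of -0.01 and 0.00, with limma adjusted p-values of 0.993 for both.

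The interferon receptor and signalling list had 20 tested genes, of which 11 were higher and 9 lower, with a median log2 difference of 0.021. Ifih1, which encodes MDA5, a cytosolic sensor of double-stranded RNA, was the 1 gene called. It had 114.7, 142.8, 84.7, 93.1 and 117.1 scaled counts in siCtrl and 186.8, 202.0, 238.6, 263.2 and 281.6 in siScrt1, so that the groups did not overlap. It rose by a log2 difference of 1.09 (SE 0.156, limma adjusted p = 0.00528). The interferon-γ receptor chain Ifngr2 had 0.22 (SE 0.096, limma adjusted p = 0.419), the signal transducer Stat3 had 0.09 (SE 0.102, limma adjusted p = 0.783) and the phosphatase Ptpn2, which restrains interferon signalling, had -0.04 (SE 0.096, limma adjusted p = 0.913). Mx1, Oas1a, Gbp2, Ifit3 and Socs1 did not pass the filter on low values.

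Antigen presentation genes are also expressed by immune and endothelial cells, so the marker genes of other cell types were summed per library. The 15 immune marker genes gave 5.44 ± 0.931 CPM for the siCtrl libraries (SD, range 4.57 to 6.83) against 6.22 ± 0.999 CPM for the siScrt1 libraries (SD, range 5.11 to 7.18). The difference was within the spread between libraries (exact two-sided permutation test, p = 0.238). Of the 15 immune genes, 12 did not pass the filter, and none of the 15 exceeded 1.304 TPM in any library. That highest value was of the myeloid gene Lyz2, while the macrophage gene Cd163 had 14 to 41 reads in every library and up to 0.613 TPM. The mean endothelial sum was 2.05 CPM for siCtrl against 2.38 CPM for siScrt1 (exact two-sided permutation test, p = 0.444). For the sums of the remaining lists (β-, α-, δ- and PP-cells, mesenchymal, duct and acinar cells) no difference passed either, with p-values of the exact permutation test adjusted over the 8 lists from 0.762 to 0.818. These tests did not pair same-numbered libraries, although some sums followed the number. The δ- and PP-cell sum was lowest in number 2 of both groups (16.7 and 20.4 CPM) and highest in number 5 (74.7 and 82.8 CPM). The part of such cells in the differences of Cd1d1, Npc2 and Ifih1 was not tested.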

How the data were processed

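Libraries for mRNA sequencing were made from RNA of sorted β-cells. The authors assigned the reads to transcripts of the rat Rnor6 build with kallisto after quality control with FastQC and trimming with Trimmomatic. The authors scaled the estimated counts and TPM values between libraries with Sleuth, so the deposited values are a signal on a common scale and not raw counts. They are called scaled counts here. The TPM sums ran from 821278 to 1153952 per library. The table held 31715 transcripts, and 9363 rows without values were left out.

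Scaled counts were summed per Ensembl gene and divided by the value of 1 read in each library (0.842 to 1.26) to give recovered reads, and of all transcript values other than 0, 48.8% were then whole numbers within 0.001 reads. The rest were fractions of shared reads. Because the values were scaled, no count model was used. Genes with at least 15 reads in all that reached, in 5 or more libraries, the CPM to which 10 reads correspond at the median depth were fitted as log2(value + 0.5) with limma 3.58.1 (lmFit, eBayes with trend, R 4.3.3), group as the only term, and p-values were adjusted by Benjamini and Hochberg over all 12941 genes. Log2 differences on this scale understate those of low genes. The fit was tested on simulated data. Marker sums were compared by exact two-sided permutation tests without pairing, and intervals of precision are the SD or SE over libraries. Tables and plots were made with pandas 2.3.3 and matplotlib 3.10.9 in Python 3.11.15.

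The members and the gene lists were chosen with earlier results of these data known. Named were the 10 members, Scrt1, from the lists each called gene, the 2 genes of smallest p and the 2 of highest TPM per list, the constitutive subunits Psmb5, Psmb6 and Psmb7, and the 3 genes most like Cd1d1 and B2m. The 8 pathway lists and 8 marker lists are each described in the results. The deposited table numbers the libraries 1 to 5 in both groups. Deviations of same-numbered libraries correlated over genes at 0.351, 0.131, 0.231, 0.198 and 0.234, so the numbers were taken to pair the libraries, and a fit with the number as a block was an alternative. The highest correlation with a differently numbered siScrt1 library was -0.041, 0.031, 0.167, 0.0217 and -0.0181 for siCtrl replicates 1 to 5. The fit with the block called 259 genes, against 136 without it. Except where pairs are named, the SEs and adjusted p-values given here are from the fit without the block. Other scalings, filters, pseudocounts, TPM values, limma-voom on recovered reads and leaving out each library were the other alternatives.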

Additional observations from a re-analysis of the deposited data

Results flagged for a closer look

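In each group of 5 libraries, the highest or lowest library was set against its nearest neighbour by Dixon's ratio, with 0.71 as the critical value. Of 110 such groups, 12 held a library that stood apart, where chance alone gives about 1 in 20 for independent groups. These groups share the same libraries and include heavy chain genes picked after their values were seen, RT1-A2 among them. The count is therefore no test against that rate. None of these values was given an explanation.

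Among the members, Cd1d1 was low in siCtrl replicate 4 at 161.0 scaled counts, against 178.7 to 185.2 in the other siCtrl libraries. Psmb8 was high in siCtrl replicate 3 at 81.07, against 37.4 to 45.0, and Psmb10 was low in siCtrl replicate 5 at 69.18, against 107.9 to 122.4.

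Of the wider pathway, siCtrl replicate 3 was also high for Gla at 1017 (778.3 to 817.4 in the others), Ap2m1 at 4050 (3214 to 3425) and the constitutive proteasome subunit Psmb7 at 957.6 (788.2 to 827.0). The heavy chain gene RT1-A2 stood at 566.2 in siCtrl replicate 3, against 71.5 to 90.9, and at 415.6 in the same-numbered siScrt1 replicate C, against 66.2 to 101.3. Rela was low in siCtrl replicate 2 at 680.0, against 789.4 to 818.0, and Tpp2 was high in siScrt1 replicate A at 1590, against 1240 to 1341.

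The mesenchymal marker sum stood at 16.77 CPM in siCtrl replicate 4, against 3.71 to 6.86 CPM, and at 30.6 CPM in siScrt1 replicate D, which carries the same number, against 4.72 to 8.68 CPM.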

How the results depend on the processing

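Cd1d1 was higher in siScrt1 in all 18 alternatives, with log2 differences from 0.799 to 0.896 in the 8 that kept all libraries and from 0.845 to 0.915 when a library was left out. Scrt1 stayed lowered in all 18, from -2.26 to -1.59. Ifih1 and Npc2 were called in all 18. The pairing of same-numbered libraries as a replicate block raised the number of genes called from 136 to 259 and changed no call among the pathway genes. Leaving out 1 library gave 62 (without siScrt1 replicate D) to 133 genes, with 81 and 77 without siCtrl replicates 4 and 5 and 83, 87 and 64 without siScrt1 replicates B, C and E. Beyond the smaller number of libraries, the cause was not tested. Pathway genes lowered ranged from 1 to 2, the latter without siCtrl replicate 3 (Elf1).

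The other members were not stable in sign when near 0. Leaving out a library moved B2m from -0.02 to 0.14, Tap1 from -0.10 to 0.08 and Erap1 from -0.14 to 0.05, while Tapbp stayed between 0.26 and 0.33, Psmb8 between 0.20 and 0.51, Psmb9 between 0.081 and 0.272, Psmb10 between 0.025 (without siCtrl replicate 5) and 0.237, Nlrc5 between -0.16 and -0.022 and Tap2 between 0.26 and 0.91. Marker sum differences (siScrt1 minus siCtrl, CPM) changed sign with 1 library left out for δ- and PP-cells (-6.194 to 11.37, with -3.129 without siCtrl replicate 2), acinar cells (-0.2269 to 0.5283, with -0.04094 without siCtrl replicate 4) and mesenchymal cells (-1.21 without siScrt1 replicate D, to 6.009). Depth limits the members with few reads, such as Tap2, Psmb8 and Psmb9, and the class II genes.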
